A study of Bos taurus with 9 samples.

Results

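The genes described here encode the proteins of the cytosolic ribosome and the factors that start, elongate and regulate translation. A gene was included when its annotated symbol starts with RPL or RPS and a digit (the RPS6K kinases left out), with RPLP or RPSA, or with EIF or EEF and a digit. The rule found 119 of the 9155 genes that the array names by a single symbol, and 165 of its 24016 tested probe sets. They comprise 62 core ribosomal proteins (39 of the large and 23 of the small subunit), 7 ribosomal protein paralogs and genes of similar name, 35 initiation factors, 6 elongation factors and 9 regulators. The tissues were longissimus dorsi muscle (the skeletal muscle along the spine), abdominal fat and subcutaneous fat of Yan yellow cattle, with 3 Affymetrix bovine arrays each. All animals were bulls of 24 months reared alike, and the tissues were taken at slaughter and frozen. The labels count 9 bulls and do not tie samples to animals, so p-values measure only the spread between these samples, and so few arrays limit the precision. Values below are log2 array intensities, and a log2 difference of 1 is a 2-fold change.

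A ribosome joins a large and a small subunit, each built of RNA and many proteins that are needed in nearly equal amounts, and the transcripts of these proteins share a start motif through which their translation follows nutrient supply. Initiation factors bring the small subunit, the initiator tRNA and the capped mRNA together, and elongation factors then deliver tRNAs and move the ribosome along. Most of these genes are active in every cell, but some have a copy used mainly in striated muscle or neurons, such as EEF1A2 for EEF1A1 and RPL3L for RPL3.

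The tissue labels were checked against defining markers, most of which lay on their labelled side. The summed linear intensity of 8 of 10 skeletal muscle markers measured was 52000 to 61900 for muscle, 3350 to 6460 for abdominal fat and 3510 to 4440 for subcutaneous fat. Of these 8, ACTA1, MYH1, MB, TNNT3, TNNI2 and MYL1 were lower in fat, while MYH7 (means of 10.66, 11.41 and 11.11 in muscle, abdominal and subcutaneous fat) and CKM (8.58, 10.32 and 9.76) were higher there. The sum of 6 of 7 adipocyte markers was 2980 to 6700, 29700 to 30700 and 27100 to 28300 in the same order, and all 6 were higher in fat. The fat arrays also carried more signal of macrophage markers (3 of 4 measured, 212 to 424 in muscle, 1300 to 3430 and 1190 to 2880 in the depots) and of endothelial markers (4 of 4 measured, 428 to 531 against 3000 to 3440 and 2430 to 2660). Of the endothelial markers, 3 were higher in fat, while VWF had every tissue mean under 6 (4.31 in muscle, 4.33 and 4.22 in the depots). The lymphocyte markers CD3E, CD3D, CD2, MS4A1 and CD79A had every tissue mean under 6, which is treated here as near background. The sixth one measured, PTPRC, was higher in fat (6.64 in muscle, 8.36 and 8.16 in the depots). Of 4 smooth muscle markers, MYH11, ACTA2 and CNN1 were higher in fat and DES, which skeletal muscle also expresses, was lower. The array median was 0.12 higher in fat than in muscle. The 3'/5' ratios of the control transcripts were also higher in fat: 0.937 to 1.012 in muscle, 1.257 to 1.622 in abdominal and 1.208 to 1.735 in subcutaneous fat for GAPD, and 0.963 to 1.036, 2.235 to 5.687 and 3.856 to 8.167 for actin. The part of cell composition and of this 3'/5' difference in the results below was not tested. Other array scales are given for some of the calls they change, so a call without them may also depend on the scale. Levels are those of whole tissue, where fewer cells of a type and less RNA per cell cannot be told apart.

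The core ribosomal proteins differed little between fat and muscle. With limma, 9 of the 62 were higher in fat and 2 lower, while 51 did not pass an adjusted p of 0.05. That is 17.7% called, against 52.6% of all probe sets (26.2% higher and 26.4% lower), and the arrays of fat and muscle did not overlap for 22.6% of these genes, against 44.8% of all probe sets. The median difference was 0.08, against -0.06 over all probe sets. For 50 of the 62 genes the 95% interval of the difference lay within 0.5 of 0 on the log2 scale, that is within 1.41-fold. The large subunit had 8 higher and 0 lower of 39 (median 0.06), and the small subunit 1 higher and 2 lower of 23 (median 0.09). Centring each array on its own median, which called 59.0% of all probe sets, gave 4 higher and 5 lower and a median of -0.04 (all probe sets -0.18). Quantile normalization, which called 51.4%, gave 12 higher and 2 lower and a median of 0.14 (all probe sets -0.03).

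**Figure D1:**
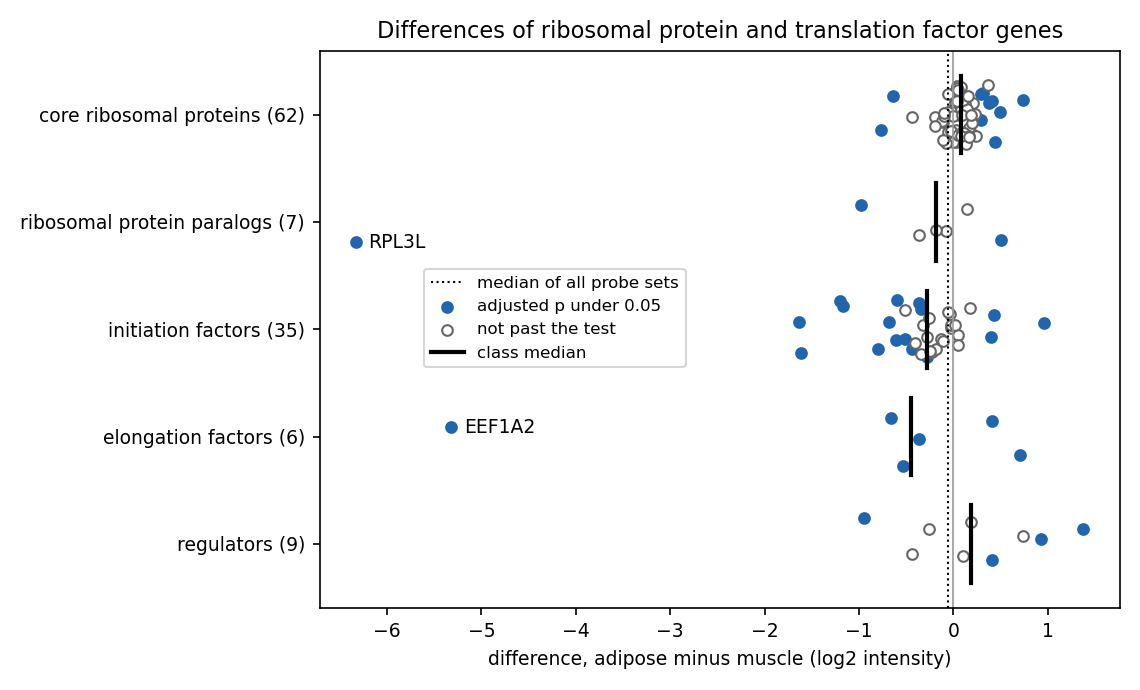
Difference between fat and muscle (log2 intensity, x axis) of each gene, by class (y axis, number of genes in brackets). Filled points passed an adjusted p of 0.05 in limma, open points did not, the thick bar is the class median and the dotted line the median of all probe sets. The 62 core ribosomal proteins lie between -0.76 and 0.74, while RPL3L and EEF1A2 lie at -6.33 and -5.32.

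Of the 62 core genes, 60 had every tissue mean over 6, with tissue means from 10.58 to 13.38, and they lay above the 95th percentile of all probe sets on every array. RPL37 (means of 2.71, 2.95 and 3.29 in muscle, abdominal and subcutaneous fat) and RPS19 (4.51, 3.73 and 3.78) were near background, so their passing differences of 0.41 and -0.76 carry little about these proteins. Among the other 60, 8 were higher, 1 was lower, and 46 differed by less than 0.2. To set them beside equally bright features, the 58 core genes with a mean over 12 were called in 13.8% of cases with a median absolute difference of 0.11. The 113 other probe sets that bright were called in 58.4%, with 0.42.

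RPL3, which lies near the peptidyl transferase centre, had the largest positive difference of the core genes. Its values were 12.09, 11.66 and 11.83 in muscle, 12.53, 12.71 and 12.72 in abdominal fat and 12.33, 12.60 and 12.69 in subcutaneous fat. Every fat array was above every muscle array, and the difference was 0.74 ± 0.13 (SE; adjusted p = 0.000994). A dimmer RPL3 probe set went the other way by -0.46 (adjusted p = 0.0479), and the mean of both did not pass (adjusted p = 0.328).

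The P-stalk and its base, which recruit the elongation factors, gave unequal values. RPLP2, a stalk protein, read 12.61, 12.39 and 12.22 in muscle, between 12.80 and 13.01 in abdominal fat, and 12.82, 12.99 and 12.79 in subcutaneous fat. The groups did not overlap, and RPLP2 was higher in fat by 0.50 ± 0.12 (adjusted p = 0.00583). RPL12, at the base of the stalk, was higher by 0.44 ± 0.11 (adjusted p = 0.00845), with at most 12.25 in muscle and at least 12.49 in fat. RPLP0, the scaffold of the stalk, differed by -0.10 (95% interval -0.34 to 0.15, adjusted p = 0.485). RPLP1 was not analysed here.

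Smaller passing differences were found for RPL26 (0.38, adjusted p = 0.0128), RPL11 (0.32, 0.0247), RPS14 (0.30, 0.0335) and RPL37A (0.29, 0.0345). RPL18, named after its values were seen, completed the 9 with 0.25 (0.0493). These 5 calls were lost when the arrays were centred, while RPL3, RPLP2, RPL12 and RPL37 kept theirs. RPL11 (adjusted p up to 0.0746), RPL37A (up to 0.0861) and RPS14 (up to 0.0779) also missed the threshold when 1 array was removed, for all 3 with muscle 3, abdominal 2 or subcutaneous 3, for RPL11 and RPS14 with muscle 2, and for RPL37A and RPS14 with muscle 1, abdominal 1 or subcutaneous 2. RPS28, a small subunit protein at the mRNA exit, was the only well measured core gene lower in fat. It read 11.45, 11.38 and 10.85 in muscle, 10.52, 10.65 and 10.60 in abdominal fat and 10.57, 10.66 and 10.51 in subcutaneous fat. No array overlapped and the difference was -0.64 ± 0.14 (adjusted p = 0.00358), but muscle replicate 3 lay close to the fat arrays. RPS6, the substrate of the S6 kinases, differed by 0.17 (interval -0.05 to 0.39, adjusted p = 0.172), and RPSA, also known as the laminin receptor, by 0.37 (0.03 to 0.70, adjusted p = 0.0637). RPSA passed after quantile normalization (0.0237), with an intensity trend in the prior variance (0.0479) and without abdominal or subcutaneous replicate 1 (0.041 and 0.0407).

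Core ribosomal proteins also shifted together from array to array within a tissue. Over the 60 well measured genes, the median deviation from a gene's own 9-array mean was 0.03, -0.01 and -0.18 for the muscle arrays, 0.04, 0.11 and 0.02 for abdominal fat and -0.09, 0.06 and 0.06 for subcutaneous fat. On muscle replicate 3, 56 of the 60 genes lay below their mean, and on subcutaneous replicate 1 it was 51. When muscle replicate 3, abdominal replicate 2 or subcutaneous replicate 3 was removed, the count of core genes higher in fat fell to 5. Without muscle replicate 3 the count of lower genes rose to 4. The median SD within a tissue was 0.104 for core genes and 0.202 for initiation factors, against 0.118 for all 181 probe sets with a mean over 12 and 0.208 for all probe sets.

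**Figure D2:**
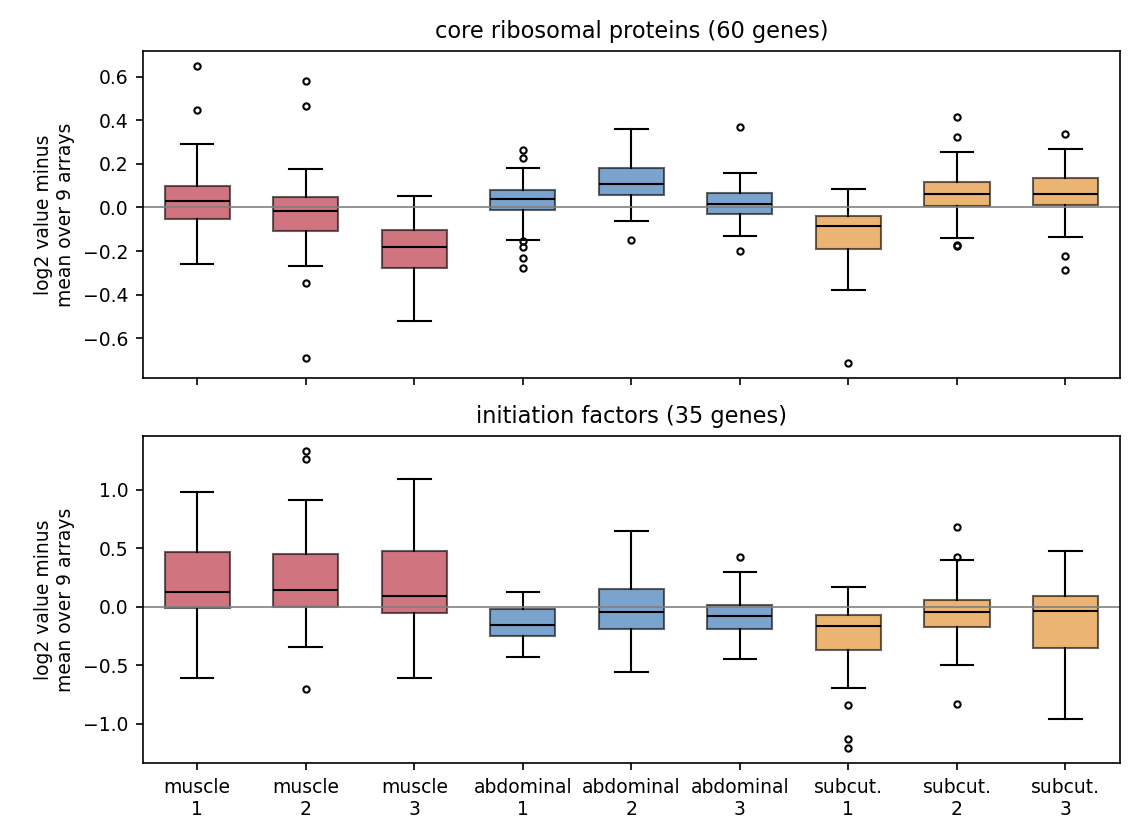
Log2 value minus the gene's mean over the 9 arrays (y axis), per array (x axis), for 60 core ribosomal proteins above and 35 initiation factors below. Boxes span the quartiles with the median as a line, whiskers reach to the last point within 1.5 times the box height, and circles are genes beyond. The medians of the initiation factors are 0.09 to 0.14 in muscle and -0.16 to -0.03 in the depots, while those of the ribosomal proteins differ as much between arrays of a tissue as between tissues.

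Some dimmer probe sets of the same genes gave larger differences than the brightest. Of the core genes, 15 had more than 1 probe set, with 22 beside the brightest, and 13 of these 22 passed (4 higher, 9 lower), where 52.6% of all probe sets were called. The 7 that differed by more than 1 belong to 6 genes named after their values were seen: RPL9, RPL24, RPS12, RPS15A, RPL19 and RPS7. The second RPL9 probe set read 6.28, 5.22 and 7.05 in muscle, 9.05, 10.12 and 9.83 in abdominal fat and 7.78, 9.05 and 9.48 in subcutaneous fat. It was higher in fat on all 6 arrays, by 3.03 ± 0.45 (adjusted p = 0.000331), while the brightest RPL9 probe set differed by 0.08. The second RPL24 probe set differed by 2.36 (adjusted p = 4.15e-05) and the brightest by -0.06. For RPS15A, RPL19 and RPS7 the other probe sets were lower in fat, by -1.60, -1.12 and -1.01. Over all 119 genes, 35 had several probe sets, and 22 of the 46 beside the brightest had the opposite sign. The array annotation does not say which transcript or which end of it each probe set reads.

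RPL3L, a copy of RPL3 known from striated muscle, had the largest difference of all the genes described here. It read 10.57, 10.71 and 10.17 in muscle, 4.27, 4.30 and 4.37 in abdominal fat and 3.89, 3.99 and 4.08 in subcutaneous fat. The fat arrays were all near background, so the difference of -6.33 ± 0.13 (adjusted p = 1.73e-09) is not exact in size. Of the 8 skeletal muscle markers above, 6 were also lower in fat, and MYH7 and CKM were not. RPS19BP1, which binds the SIRT1 deacetylase and is no ribosomal copy, was lower in fat by -0.98 ± 0.17 (adjusted p = 0.000889), with 8.77 to 9.57 in muscle, 7.86 to 8.11 in abdominal and 8.28 to 8.60 in subcutaneous fat.

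RPS4Y1, the gene symbol given to a Y-linked copy of the small subunit protein S4, was higher in fat by 0.51 ± 0.10 (adjusted p = 0.0018), with 12.54 to 12.80 in muscle and 13.18 to 13.25 in fat. Its other probe sets gave 2.02 (adjusted p = 3.66e-05) and -0.56 (0.0139), and reads of near-identical copies cannot be told apart on the array. The remaining copies did not pass: RPL26L1 at -0.36 (adjusted p = 0.0524), RPS27L at -0.18 (0.256, and 0.0375 without muscle replicate 3), RPL7L1 at 0.15 (0.305) and RPL15P, a pseudogene in the RefSeq gene table and named after its values were seen, at -0.08 (0.57). RPL26L1 passed after centring (0.0171), with array weights (0.0181), under the filter on dim probe sets (0.048), with 1 probe set per gene (0.0462), with averaged probe sets (0.042) and without muscle replicate 3 (0.00714). The 7 genes of this class comprised 1 higher and 2 lower, or 42.9% called with a median of -0.18, against 52.6% and -0.06 over all probe sets.

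**Figure D3:**
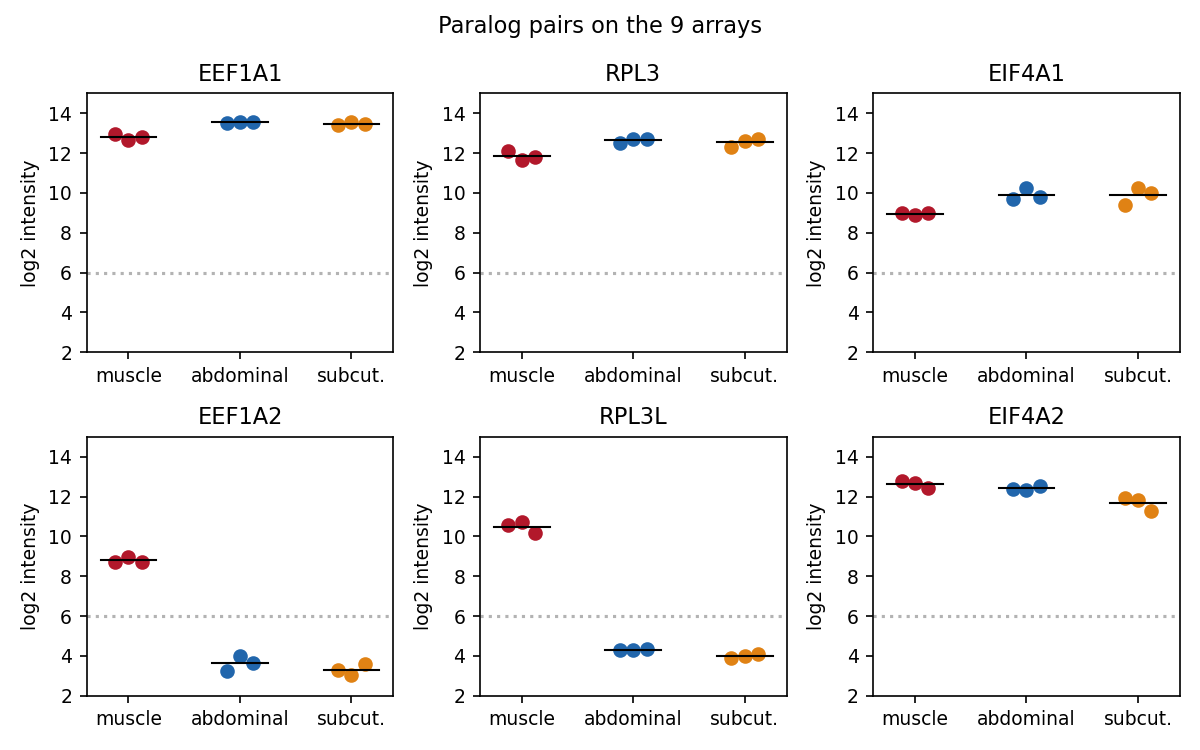
Log2 intensity (y axis) of EEF1A1, RPL3 and EIF4A1 above and of their copies EEF1A2, RPL3L and EIF4A2 below, on the 3 arrays of each tissue (points) with the tissue mean (bar). The dotted line at 6 is the value below which a mean is taken as near background. EEF1A2 and RPL3L lie above it in muscle only, and each upper gene is higher in both depots than in muscle.

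All 6 elongation factors passed the test between fat and muscle, 2 higher and 4 lower, and the same 2 and 4 passed after centring, where 52.6% and 59.0% of all probe sets were called. EEF1A1, which delivers aminoacyl tRNAs in most cells, read 12.96, 12.67 and 12.82 in muscle, 13.50, 13.57 and 13.57 in abdominal fat and 13.43, 13.57 and 13.46 in subcutaneous fat. It was higher in fat by 0.71 ± 0.10 (adjusted p = 0.000267), with no overlap. EEF1A2, its copy in muscle and neurons, read 8.71, 8.96 and 8.71 in muscle, 3.26, 3.98 and 3.65 in abdominal fat and 3.28, 3.04 and 3.61 in subcutaneous fat. Fat was near background on all 6 arrays, and the difference was -5.32 ± 0.18 (adjusted p = 2.24e-08).

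EEF2, which moves the ribosome by 1 codon at a time, was higher in fat by 0.41 ± 0.11 (adjusted p = 0.00841), between 12.09 and 12.22 in muscle and between 12.44 and 12.76 in fat. In the mean of both depots, the subunits of the exchange factor that recharges EEF1A with GTP were all lower. EEF1B2 (-0.09, adjusted p = 0.661) and EEF1D (-0.49, 0.0674, but 0.0296 after centring) did not pass in abdominal fat. In subcutaneous fat they did (-0.64, 0.00556 and -0.83, 0.00669). EEF1G fell by 0.53 ± 0.11 (adjusted p = 0.00291), with 12.53 to 12.66 in muscle, 12.11 to 12.36 in abdominal and 11.77 to 12.06 in subcutaneous fat. EEF1D fell by 0.66 ± 0.17 (adjusted p = 0.0092). EEF1B2, a catalytic subunit, read 12.54, 12.48 and 12.25 in muscle, 12.23, 12.43 and 12.35 in abdominal fat and 11.52, 11.94 and 11.90 in subcutaneous fat. Muscle overlapped abdominal fat, and the difference of -0.36 ± 0.13 (adjusted p = 0.0369) no longer passed once any of 5 arrays was removed (muscle 1 and 2, abdominal 1 and 3, subcutaneous 1, with adjusted p from 0.061 to 0.128), nor after quantile normalization (0.0635).

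More initiation factors passed as lower than as higher in fat. Of 35, 13 were lower, 3 higher and 19 did not pass, which is 45.7% called, against 52.6% of all probe sets. The median was -0.28, against -0.06 over all probe sets, and 28 of the 35 had a negative difference. After centring the counts were 19 lower and 2 higher, with EIF6 among those that no longer passed. That is 60.0% called with a median of -0.4, against 59.0% and -0.18 over all probe sets. Without muscle replicate 1 only 1 was higher.

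Among the factors that handle the initiator tRNA, EIF2S1, the alpha subunit of eIF2 that stress kinases phosphorylate, read 9.60, 9.72 and 9.49 in muscle, 8.83, 9.00 and 8.85 in abdominal fat and 8.50, 8.90 and 8.70 in subcutaneous fat. It was lower by -0.80 ± 0.12 (adjusted p = 0.000291), with no overlap. EIF2S3, the gamma subunit, differed by -0.22 (adjusted p = 0.33, and 0.0328 without muscle replicate 3), and EIF2S2 was not analysed here. EIF2A, a separate tRNA-binding factor, read 8.22, 8.65 and 8.30 in muscle, 7.20, 6.90 and 7.24 in abdominal fat and 6.11, 6.49 and 6.76 in subcutaneous fat. The 3 tissues did not overlap, and fat was lower by -1.61 ± 0.17 (adjusted p = 2.77e-05).

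Of the 4 measured subunits of eIF2B, which exchanges the nucleotide on eIF2, 2 were lower. EIF2B3 fell by 1.20 ± 0.20 (adjusted p = 0.00068), with 7.76 to 7.99 in muscle, 6.69 to 7.21 in abdominal and 5.95 to 6.77 in subcutaneous fat. EIF2B4 fell by 0.61 ± 0.12 (adjusted p = 0.00224). EIF1, which guards start codon choice, differed by -0.28 (adjusted p = 0.0303, but 0.0515 to 0.0802 without muscle replicate 2, any abdominal array or subcutaneous replicate 1), and EIF1B and EIF1AX did not pass.

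The eIF3 complex bridges the small subunit and the cap-binding factors, and 4 of its 12 measured members were lower, with a median of -0.22. That is 33.3% called, against 52.6% of all probe sets. EIF3J, a loosely bound member at the mRNA channel, stood apart from the others. It read 10.88, 11.23 and 11.06 in muscle, 9.54 on each abdominal array, and 9.13, 9.47 and 9.35 in subcutaneous fat. All 6 fat arrays were below muscle, and the difference was -1.63 ± 0.12 (adjusted p = 2.89e-06). The other passing members, named after their values were seen, were EIF3H (-0.44, adjusted p = 0.0223), EIF3G (-0.36, 0.0372) and EIF3I (-0.34, 0.0346). After quantile normalization EIF3G (adjusted p = 0.0506) and EIF3I (0.061) did not pass.

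The eIF4 group, which includes the cap-binding complex eIF4F and other genes of similar name, moved in both directions. Of its 10 genes, 2 were higher and 4 lower, or 60.0% called, against 52.6% of all probe sets. EIF4E, which binds the cap, read 10.97, 10.87 and 10.46 in muscle, 9.73, 9.66 and 9.54 in abdominal fat and 9.33, 9.90 and 9.43 in subcutaneous fat. It was lower in fat by -1.17 ± 0.16 (adjusted p = 0.000184), with no overlap, and its copy EIF4E3 by -0.68 ± 0.18 (adjusted p = 0.0106, and 0.0556 without muscle replicate 1). The helicase EIF4A1, which unwinds the leader of the mRNA, read 8.98, 8.88 and 8.98 in muscle, 9.68, 10.23 and 9.81 in abdominal fat and 9.42, 10.27 and 10.02 in subcutaneous fat. It was higher in fat by 0.96 ± 0.19 (adjusted p = 0.00185), again with no overlap.

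EIF4A2, the other helicase of eIF4F, went down. It read 12.78, 12.70 and 12.46 in muscle, 12.37, 12.33 and 12.54 in abdominal fat and 11.91, 11.84 and 11.29 in subcutaneous fat. The mean of both depots was lower by -0.60 ± 0.15 (adjusted p = 0.00842), which came from subcutaneous fat (-0.97, adjusted p = 0.00144) more than from abdominal fat (-0.23, adjusted p = 0.313), where 1 array overlapped muscle. EIF4A3, a helicase of the exon junction complex, was higher in fat (0.43, adjusted p = 0.0113), as was EIF6, which keeps free large subunits apart from small ones (0.40, 0.0196, but 0.0758 after centring). Both lost the call without muscle replicate 1 (0.0535 and 0.0606), and EIF6 also without muscle replicate 2 (0.0535). The scaffold EIF4G3 differed by -0.51 (adjusted p = 0.0379, which held only without muscle replicate 2 or subcutaneous replicate 1 when 1 array was removed, and otherwise reached 0.0552 to 0.143), its paralog EIF4G1 by -0.40 (0.103, but 0.0336 after centring, 0.0376 after quantile normalization and 0.0161 without muscle replicate 2), and the helicase cofactor EIF4B by -0.02 (0.921).

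**Figure D4:**
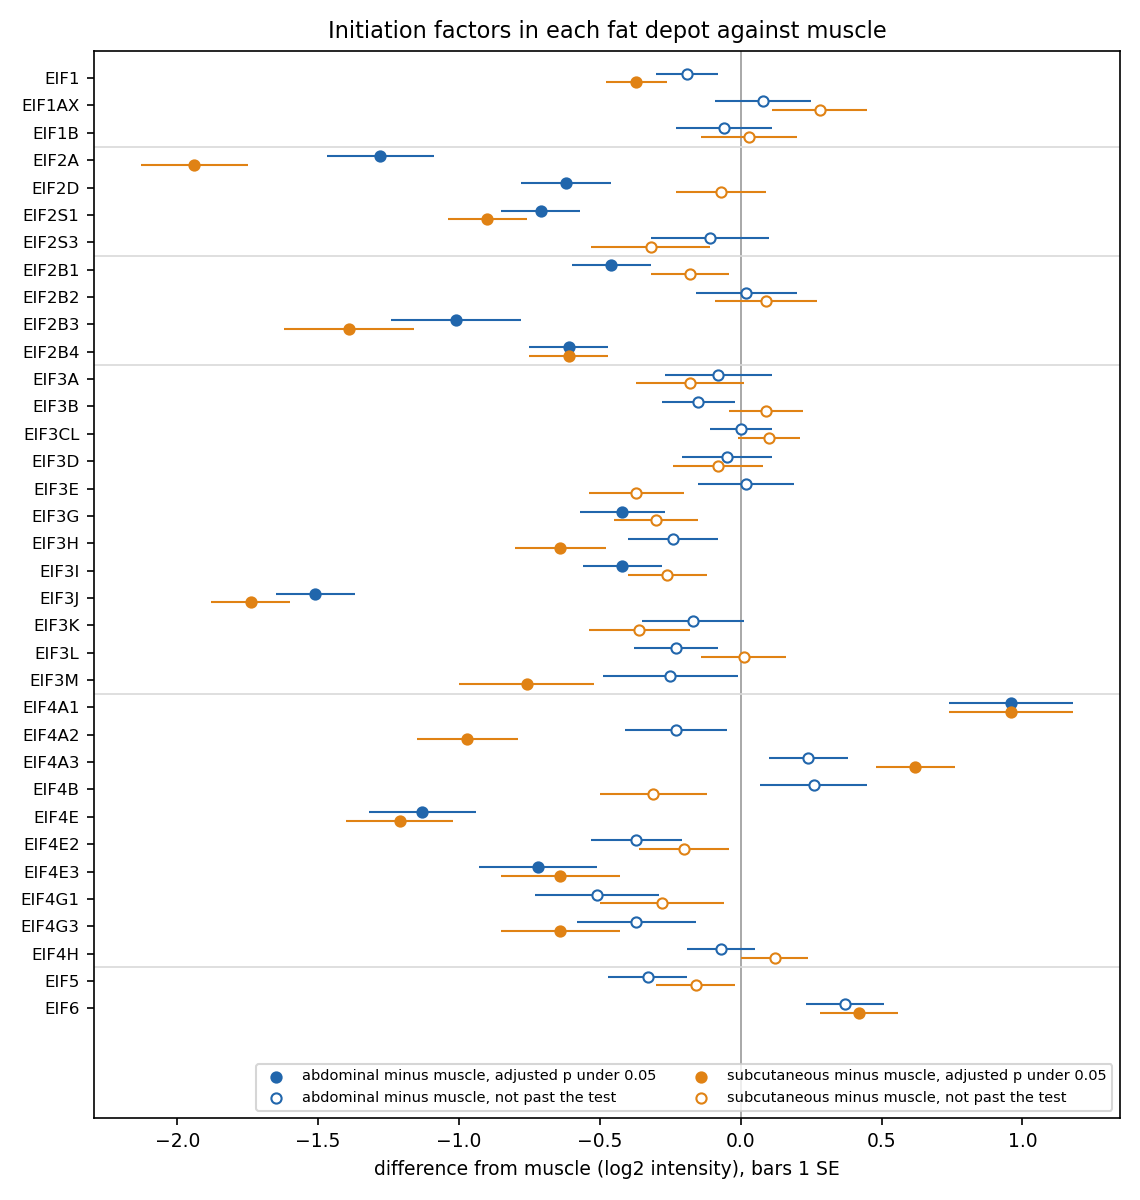
Difference of each initiation factor from muscle (log2 intensity, x axis), in abdominal fat (blue) and subcutaneous fat (orange), with bars of 1 SE. Filled points passed an adjusted p of 0.05 in limma, and grey lines part the groups from eIF1 to eIF5 and eIF6. EIF3J, EIF2A, EIF2B3 and EIF4E lie below -1 in both depots, and EIF4A1 lies at 0.96 in both.

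For 10 pairs of paralogs the difference between both copies was taken within each array, which cancels the array scale, and compared by a two-sided exact permutation test of the 6 fat against the 3 muscle arrays. The smallest p this design allows is 0.0238, and 4 pairs reached it, each with an adjusted p of 0.0595 over the 10 pairs, so none passed 0.05. They were EEF1A2 against EEF1A1, whose difference fell by 6.03 from muscle to fat, RPL3L against RPL3 (by 7.07), EIF4A2 against EIF4A1 (by 1.56) and RPL26L1 against RPL26 (by 0.75). The sizes for EEF1A2 and RPL3L are not exact, since both were near background in fat. In these 4 pairs no fat array overlapped a muscle array, which follows from reaching the smallest p and is no separate result. EIF4E2 against EIF4E rose by 0.89 (exact permutation p = 0.0714, adjusted 0.102) and EIF4G3 against EIF4G1 changed by -0.11 (exact permutation p = 0.762). When the mean of all probe sets of each gene stood for it, 6 pairs passed.

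The array carries control probe sets at 3 positions of EEF1A1 and EIF4E, which were left out of the tests and show how far the position on the transcript matters. For EEF1A1 the difference between fat and muscle was 0.67 at the 5′ end, 1.24 in the middle and 1.55 at the 3′ end. For EIF4E it was -2.14, -1.64 and -1.08. At each position the 6 fat arrays lay on the same side of the 3 muscle arrays, so the direction for both genes was the same at each position while the size was not. A second probe set of EEF1A1 outside the controls differed by 1.5 on the log2 scale (adjusted p = 2.18e-05). The middle EEF1A1 control was near background in muscle (mean 5.20), and the 5′ EIF4E control in subcutaneous fat (mean 5.3). The sizes there are therefore not exact.

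**Figure D5:**
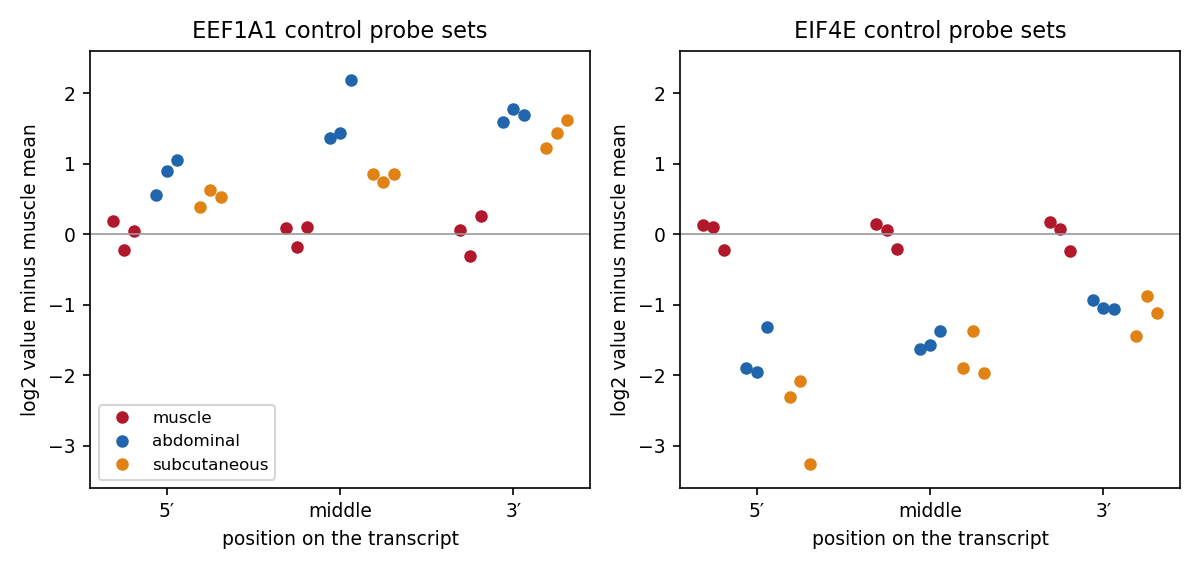
Log2 value minus the mean of the 3 muscle arrays (y axis) at the 5′, middle and 3′ control probe sets (x axis) of EEF1A1 (left) and EIF4E (right), per array. EEF1A1 is higher in fat and EIF4E lower at all 3 positions, and the mean over the fat arrays shifts upward from 5′ to 3′ for both.

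Among the 9 regulators, 3 were higher and 1 lower in fat (44.4% called with a median of 0.19, against 52.6% and -0.06 over all probe sets). EEF1E1, a scaffold of the tRNA synthetase complex, was lower by -0.95 ± 0.18 (adjusted p = 0.00173), with 9.62 to 10.06 in muscle, 8.83 to 9.12 in abdominal and 8.48 to 9.33 in subcutaneous fat. EIF2AK3, the endoplasmic reticulum kinase PERK that phosphorylates eIF2, read 4.82, 5.38 and 5.11 in muscle, 5.87, 5.98 and 6.11 in abdominal fat and 6.28, 6.00 and 5.98 in subcutaneous fat. It was higher by 0.93 ± 0.14 (adjusted p = 0.000366), but its muscle mean was near background. The methyltransferases EEF1AKMT3 (1.38 ± 0.19, adjusted p = 0.000184) and EEF2KMT (0.41, adjusted p = 0.00879) also passed, with every tissue mean under 6.

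EIF2AK2, the kinase PKR, differed by 0.74 (adjusted p = 0.0831), with muscle replicate 3 at 6.51 against 5.00 and 5.06 on the other muscle arrays and 5.90 to 6.73 in fat. It passed without that array (adjusted p = 0.00142) and with array weights (0.0104). EEF2K, which inhibits EEF2, differed by -0.26 (adjusted p = 0.0622, 0.0139 after centring and 0.0495 without abdominal replicate 2), and EIF2AK1, the heme-regulated kinase, by 0.19 (0.157, and -0.03 after quantile normalization). EIF4EBP1, the inhibitor of EIF4E that mTORC1 releases, read 8.55, 9.56 and 8.24 in muscle, 8.44, 8.99 and 9.07 in abdominal fat and 7.44, 8.44 and 7.67 in subcutaneous fat. Muscle overlapped fat, and the difference was -0.44 ± 0.31 (adjusted p = 0.26). EIF4EBP2, EIF4EBP3, EIF2AK4 and EIF5A were not analysed here.

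Other genes of translation were described by lists. Among 5 measured genes of the nutrient-controlled start motif and the nascent chain, 2 were higher and 0 lower (median 0.19): PABPC1, which binds the poly(A) tail, by 1.74 ± 0.12 (adjusted p = 1.75e-06), and NACA, which meets the new peptide, by 0.76 ± 0.15 (0.00155). Of 6 cofactors of cap and poly(A) tail, 2 were higher and 4 lower (median -0.65). PAIP1 (-1.35, adjusted p = 9.51e-06) and PABPC4 (-1.24, 0.000105), which work on the poly(A) tail, were among the lower, and the EIF4E kinase MKNK1 (0.90, 0.00185) and the EIF4A inhibitor PDCD4 (0.84, 0.000494) were higher. FAU and RACK1, ribosomal components of other names, differed by 0.07 and 0.21 and did not pass.

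Termination and recycling had 0 higher and 4 lower of 7 measured genes, with a median of -1.04. MCTS1 and DENR, partners in recycling and reinitiation, were lower by -2.03 ± 0.13 (adjusted p = 1.21e-06) and -1.35 ± 0.14 (2.87e-05). HBS1L, a factor of ribosome rescue, was lower by -1.86 ± 0.11 (7.12e-07), and the release factor ETF1 by -1.04 ± 0.11 (3.76e-05). Ribosome biogenesis had 1 higher and 6 lower of 16 (median -0.25), led by the nucleolar GTPase GNL3 (-1.76), the polymerase subunit POLR1D (-1.54) and the snoRNP protein NHP2 (-1.50). The 1 higher gene was nucleolin, NCL, named after its values were seen (0.39, adjusted p = 0.0493). After centring, where 59.0% of all probe sets were called, the biogenesis counts were 0 higher and 8 lower.

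In mTORC1 and the S6 kinases 2 were higher and 5 lower of 10 (median -0.33). RPS6KA3 (-1.58), near background in fat, RHEB (-0.71), the activator of mTORC1, and MLST8 (-0.62), one of its subunits, were lower. The S6 kinase RPS6KB1 was higher (0.70, adjusted p = 0.00953), while the S6 kinase RPS6KB2, named after its values were seen, was lower (-0.54, 0.011). Of 4 genes of the integrated stress response, 2 were lower (median -0.38): ATF4, its transcription factor, by -0.87 ± 0.15 (adjusted p = 0.000749), and PPP1R15A, which directs eIF2 dephosphorylation, by -0.62 (0.0262). Beside these lists, 52.6% of all probe sets were called with a median of -0.06.

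Taken separately, abdominal fat had 12 of the 119 genes higher and 18 lower than muscle, where 46.6% of all probe sets were called, and subcutaneous fat had 14 higher and 24 lower, where 47.0% were called. Both comparisons share the muscle arrays. The core ribosomal proteins had 5 higher and 2 lower in abdominal fat and 5 higher and 4 lower in subcutaneous fat. The initiation factors had 1 higher and 11 lower in the first and 3 higher and 12 lower in the second. For EEF1A2 the values were -5.16 and -5.48, for EIF3J -1.51 and -1.74, and for EIF2D, named after its values were seen, -0.62 (adjusted p = 0.00931) and -0.07 (adjusted p = 0.735).

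By its brightest probe set, no gene of the 119 passed between abdominal and subcutaneous fat in limma, where 1.31% of all probe sets were called. A dimmer probe set of RPL32, named after its values were seen, was higher in abdominal fat by 1.16 (adjusted p = 0.0232). It read 8.83 to 8.99 there and 7.59 to 7.95 in subcutaneous fat. Of the 119, 12 had an unadjusted p under 0.05 (10.1%, against 14.5% of all probe sets), 7 of them higher in abdominal fat. The arrays of both depots did not overlap for 29.4% of the genes, against 23.6% of all probe sets. EIF4A2, whose arrays are given above, was higher in abdominal fat by 0.74 ± 0.18 (95% interval 0.34 to 1.13), with no overlap. Its adjusted p of 0.0803 was the smallest among the brightest probe sets of the 119 genes. With array weights EIF4A2 (adjusted p = 0.032) and EIF2D (0.04) passed, EIF2D being lower in abdominal fat by -0.54, with 6.37 to 6.53 there and 6.81 to 7.12 in subcutaneous fat.

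EEF1B2 was 0.55 higher in abdominal than in subcutaneous fat (interval 0.22 to 0.89, adjusted p = 0.11), and EIF2A was 0.66 higher (0.23 to 1.09, adjusted p = 0.134). All 6 elongation factors were on the abdominal side, by 0.06 to 0.55, and none passed. EIF4EBP1 was 0.98 higher in abdominal fat, with an interval of 0.18 to 1.79 and an adjusted p of 0.233. For 57 of the 62 core ribosomal proteins the interval of the depot difference lay within 0.5 of 0.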

How the data were processed

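Per the labels, biotin-labelled cRNA was hybridised to a 1-colour Affymetrix bovine array, and the RNA kit is named for the adipose samples. The authors deposited 1 linear intensity per probe set and array (3.06 to 17450.5), and the submitters' processing notes name RMA, whose version is not given in the sources used here. As the plan assumed log2 values, deposited intensities were first turned into log2. No further normalization was applied.

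Of 24128 probe sets, the 112 controls were left out. Names came from the array annotation, updated through the RefSeq gene table: 13292 probe sets carry 1 symbol and 86 several. The brightest probe set by the 9-array mean stood for a gene. All 9 arrays entered 1 limma 3.58.1 fit (R 4.3.3) with a mean per tissue (6 residual degrees of freedom), two-sided, with Benjamini-Hochberg adjustment over 24016 probe sets and a threshold of 0.05. Errors are moderated SEs, and fat means the average of both depots unless a depot is named. On simulated data for fat against muscle (24016 probe sets, 200 changed), 14.4%, 68.8%, 94.4% and 100% of log2 differences of 0.5, 1, 2 and 4 were called, with 4.38% of calls false. In the data 52.6% of probe sets were called, and the adjustment is stricter when few are changed. The simulated shares therefore do not carry over to these data.

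The members, classes and lists were chosen with earlier results of these data known. Genes were named by a rule: up to 8 largest passing differences in each direction per class, the paralog pairs, 31 fixed genes (25 measured) and up to 4 per list. The report says where others were named after their values were seen, and EIF1AX, FAU and RACK1 were also named outside this rule. Alternatives covered scaling, prior variance, a filter on dim probe sets, array weights, a replicate block, the threshold, the probe set per gene and leaving out each array. Tables and figures used Python 3.11.15, pandas 2.3.3, numpy 2.4.6, scipy 1.17.1 and matplotlib 3.10.9.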

Additional observations from a re-analysis of the deposited data

How the results depend on the processing

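No called difference changed sign. Of the named genes that did not pass, several changed sign, among them the following. EIF2AK1, EIF1B and EIF4B went from 0.19, -0.02 and -0.02 to -0.03, 0.01 and 0.01 after quantile normalization. EIF1B and EIF4B also changed sign when some single arrays were left out. RPS27 went from 0.11 to -0.0 after centring. RPL7L1 went from 0.15 to -0.21 with averaged probe sets, and EIF2AK2 from 0.74 to -0.02 with the probe set brightest in muscle. Of the named genes, 25 of the 36 that passed between fat and muscle passed under every alternative in which they were tested, other than a threshold of 0.01. These 25 include RPL37, RPS19, EEF2KMT and EEF1AKMT3. Their tissue means were all under 6, and the filter on dim probe sets removed them, so it did not test them. The count of core ribosomal proteins higher in fat was 9. It was 4 after centring, 5 with the replicate block and 4 at 0.01, and 5 to 9 when 1 array was left out. The count lower was 2, with 5 after centring, 6 when a gene's probe sets were averaged and 2 to 4 without 1 array. Initiation factors had 3 higher, with 1 at 0.01 and 1 to 3 without 1 array, and 13 lower, with 7 at 0.01 and 9 to 14 without 1 array. Elongation factors had 2 higher in each leave-one-out fit and 3 to 4 lower. Regulators had 3 higher, with 1 under the filter on dim probe sets and 3 to 4 without 1 array, and 1 lower, with 2 after centring, 2 with the replicate block and 1 to 2 without 1 array. The causes were not tested. Abdominal fat against muscle had 30 calls (23 to 32 without 1 array), and subcutaneous fat 38 (24 at 0.01, and 30 to 39). Between the depots there were 0 calls among the brightest probe sets, 2 with array weights and 0 in each leave-one-out fit. Paralog pairs had 0 passing, 6 when probe sets were averaged and 0 without 1 array, where the smallest exact p was 0.0714 without a muscle and 0.0357 without a fat array. The labels do not say whether samples with the same leading title number share an animal. The 7 same-number pairs had correlations of deviations from 0.043 to 0.362 (median 0.149), and 2 of them were under 0.1. The 20 other pairs had -0.324 to 0.17 (median -0.06). These values do not settle whether the samples are paired, and the main fit used no block. The replicate block ended the calls of EEF1B2 (adjusted p = 0.0718), EIF1 (0.0905), EIF4G3 (0.0831), RPL11 (0.0681), RPL37A (0.0768) and RPS14 (0.0586), and EIF4EBP1 passed with it (-0.59, 0.0186). The number of arrays and near-background means limit the precision.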
